A study of Mus musculus with 10 samples.

Results

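The 10 genes described here encode the basement membrane that primitive endoderm (PrE) lays down: the laminin chains *Lama1*, *Lamb1* and *Lamc1*, the collagen IV chains *Col4a1* and *Col4a2*, the linker proteins *Nid1*, *Nid2* and *Hspg2*, the collagen-binding glycoprotein *Sparc*, and fibronectin, *Fn1*. They were chosen by name for what their proteins do, with earlier results of these data known, out of 21938 protein-coding genes, and the measurement is H3K4me3 at their promoters. H3K4me3 is a histone mark found at the promoters of active genes, and CUT&Tag maps it with an antibody that brings the Tn5 transposase to the mark. The cells were naive extra-embryonic endoderm (nEnd), derived from 1 mouse embryonic stem cell line that carries an OCT4-mCherry reporter and listed as untreated. The study grew nEnd on a layer of mouse embryonic fibroblasts in a medium with Activin A, CHIR99021 and LIF, and sorted it by mCherry and by PDGFRA at the cell surface. Oct4+ nEnd (4 libraries) had mCherry only, DP nEnd (3 libraries) had both, and Pdgfra+ nEnd (3 libraries) had PDGFRA only. The question is whether H3K4me3 at these promoters differed among the populations, and since each library pools sorted cells, fewer marked cells and less mark per cell cannot be told apart.

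A basement membrane is built in layers. Laminin trimers of an alpha, a beta and a gamma chain polymerise at the cell surface, collagen IV forms a cross-linked network beside them, and nidogens and perlecan (the product of *Hspg2*) tie the layers together. In the embryo, PrE and its derivative the parietal endoderm secrete these proteins in quantity, with SPARC among the abundant products of parietal endoderm. Fibronectin is made by many cell types, fibroblasts included.

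Each library was deposited as a list of SEACR peaks with the summed coverage of every peak, called its total signal here. A gene was taken as marked where a peak touched the 1000 bp before or the 100 bp after any of its annotated transcription start sites (TSSs). Coverage was not scaled between libraries, so a promoter was given its percentile: the share of a library's peaks whose total signal was no larger than that of the strongest peak at the promoter, or 0 where no peak was called. The lists held 3477 to 9144 peaks in Oct4+ nEnd, 7575 to 8836 in DP nEnd and 6510 to 10545 in Pdgfra+ nEnd. Read depth is unknown, and the highest coverage of the median peak was 22 to 59 in Oct4+ nEnd, 107 to 144 in DP nEnd and 67 to 143 in Pdgfra+ nEnd. Oct4+ nEnd replicates 3 and 4 had the shortest lists, and a peak missing from a list means that none was called, not that the mark is absent. The *Pdgfra* promoter, which encodes the sorted surface marker, stood between percentiles 99.8 and 100 in all 6 DP and Pdgfra+ nEnd libraries and had a peak in 1 of 4 Oct4+ nEnd libraries.

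By total signal, laminin, collagen IV and *Sparc* promoters were among the strongest H3K4me3 sites of DP nEnd and Pdgfra+ nEnd. In Oct4+ nEnd all of them but *Lamc1* were in the lower part of the list or not called. Total signal is summed over the peak and so grows with its width. By highest coverage *Lama1*, *Lamb1* and *Sparc* stood lower, with *Lamb1* at percentile 53.1 in Pdgfra+ nEnd replicate 2, whereas *Lamc1* and collagen IV remained near the top. Of the 10 genes, 9 were marked in each DP nEnd library and 10, 8 and 9 in Pdgfra+ nEnd replicates 1, 2 and 3, against 9, 7, 4 and 4 in Oct4+ nEnd replicates 1 to 4. Over all protein-coding genes the marked share was 39.1% to 44.8% in DP nEnd, 33.5% to 50.8% in Pdgfra+ nEnd and 43.5%, 39.5%, 18.3% and 25.2% in Oct4+ nEnd replicates 1 to 4, so a drop in replicates 3 and 4 was also seen over all genes. The number over the 90th percentile was 7 in each DP nEnd library and 6 or 7 in each Pdgfra+ nEnd library, while it was 1 in Oct4+ nEnd replicate 1 and 0 in its other libraries. For scale, 10.9% to 13.1% of all marked genes of a library exceeded the 90th percentile. Within Oct4+ nEnd the count was highest in the libraries with most peaks, and without each Oct4+ nEnd library in turn its mean was 5 to 6.67. With each library reduced to its 3477 strongest peaks, Oct4+ nEnd kept 3.75 marked members per library, DP nEnd 8 and Pdgfra+ nEnd 7.33.

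In a limma fit over 9864 genes marked in at least 3 of the 10 libraries, 9 members could be tested, and *Nid1* could not. Lower in Oct4+ nEnd than in Pdgfra+ nEnd by an adjusted p under 0.05 were 7 members (*Lama1*, *Lamb1*, *Lamc1*, *Col4a1*, *Col4a2*, *Hspg2* and *Sparc*), in a comparison that called 14.0% of all tested genes in that direction. *Col4a1* and *Col4a2* share the same peak, so in every count of members here they are not independent. *Fn1* alone was called higher in Oct4+ nEnd, where the share over all genes was 4.37%. Against DP nEnd the 7 genes were again lower in Oct4+ nEnd, where 8.23% of genes were called lower, and no member was among the 1.74% called higher. These comparisons share the Oct4+ nEnd libraries. Between DP nEnd and Pdgfra+ nEnd limma called 0 members, 0.101% of genes higher in DP nEnd and 0% lower, and at an unadjusted p under 0.05 it gave 197 genes higher, 89 lower and 0 members. By mean, *Lama1*, *Lamb1*, *Lamc1*, *Col4a1*, *Col4a2* and *Sparc* stood at percentiles 97.1 to 99.99 in both populations, near the top of the scale. Percentiles have little room to differ there, so a missing call does not show equal H3K4me3. The median difference over all tested genes was -10.4 percentile points for Oct4+ nEnd against Pdgfra+ nEnd and -10.4 against DP nEnd, and it moved to -1.49 and -2.41 with equal numbers of peaks, so each difference below is also to be read against that median. With equal numbers of peaks the calls higher in Oct4+ nEnd went from 23.8% to 45.2% of all calls against Pdgfra+ nEnd and from 17.5% to 41.3% against DP nEnd. The same 7 members remained lower in both, where 28.0% and 22.8% of genes were called lower, and they remained so without Oct4+ nEnd replicate 3. Between DP nEnd and Pdgfra+ nEnd the share of calls higher in DP nEnd went from all calls to 54.0%, with 1.55% of genes called higher, 1.32% lower and again no member. In that setting *Fn1* kept no peak in either of these populations. The percentiles of the 7 genes did not overlap between Oct4+ nEnd and either other population, as held for 22.2% of all genes lower in Oct4+ nEnd than in Pdgfra+ nEnd and 27.5% lower than in DP nEnd.

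**Figure D1:**
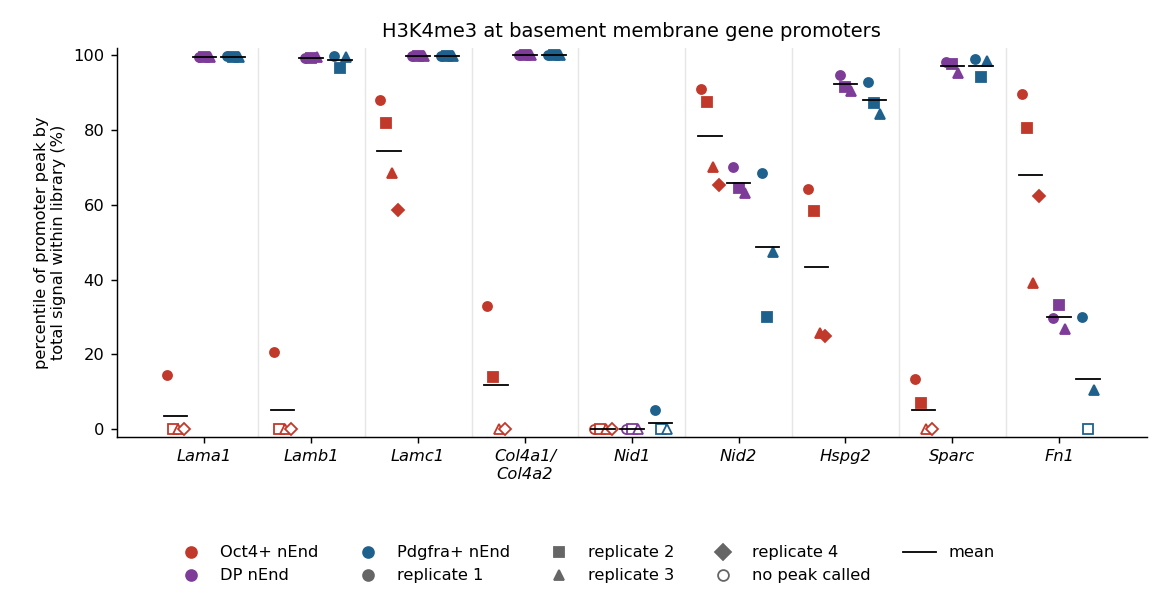
Percentile of the strongest promoter peak by total signal within its library (y axis, 0 to 100%) for each gene (x axis) in every library of Oct4+ nEnd (red), DP nEnd (purple) and Pdgfra+ nEnd (blue). Marker shapes are replicate numbers, open markers at 0 are libraries with no peak called, and black lines are means. *Lama1*, *Lamb1*, *Lamc1*, *Col4a1*/*Col4a2*, *Hspg2* and *Sparc* are higher in the DP and Pdgfra+ nEnd libraries than in every Oct4+ nEnd library, and *Fn1* is lower.

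**Figure D2:**
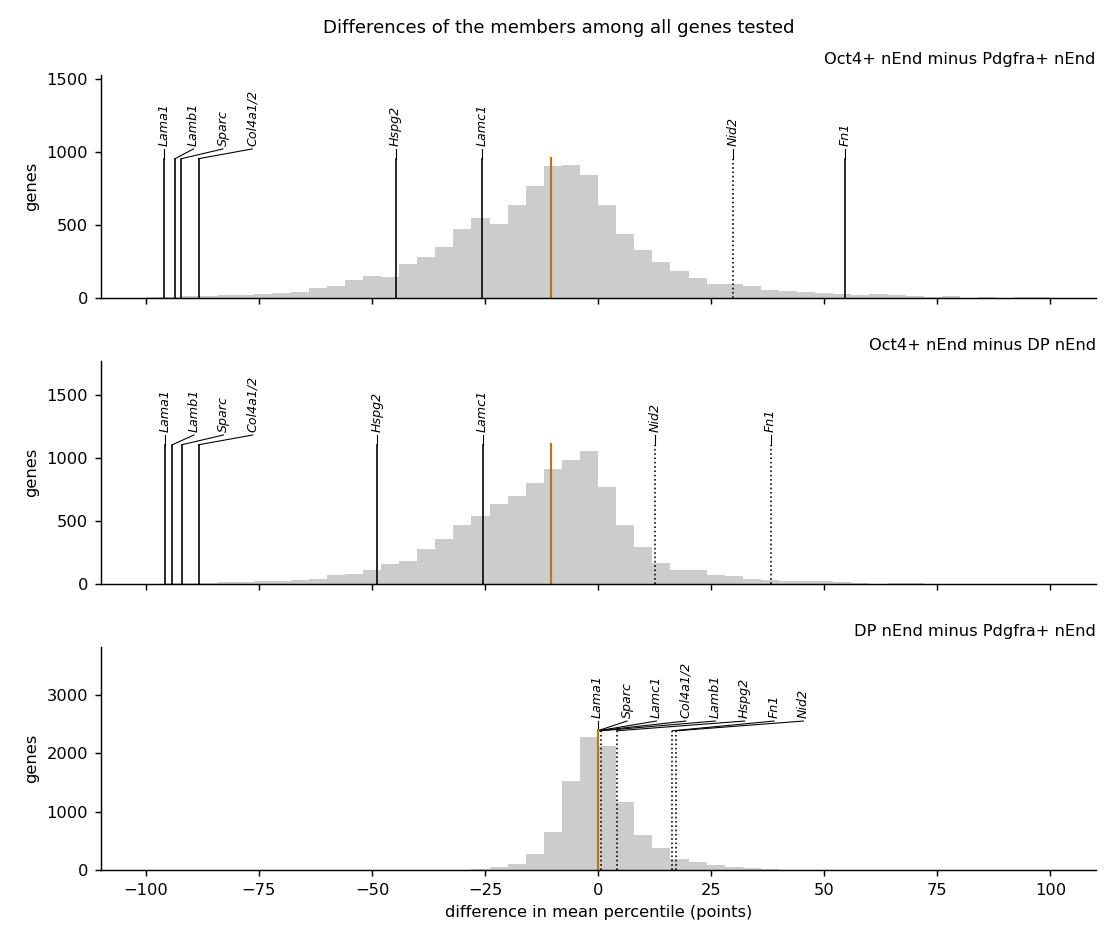
Number of tested genes (y axis) by difference in mean percentile (x axis, points) for the 3 pairs of populations, with the members drawn as vertical lines, solid where the limma adjusted p was under 0.05 and dotted otherwise. The ochre line is the median of all 9864 genes, at -10.4, -10.4 and -0.0204 points from top to bottom. *Lama1*, *Lamb1*, *Sparc* and *Col4a1*/*Col4a2* lie at the left edge of the first pair of panels, and no member is called in the third.

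The laminin-111 trimer is the first laminin of the embryo, and its alpha chain is encoded by *Lama1*, a gene of 125389 bp at chr17:67697259-67822647 (GRCm38, plus strand). The *Lama1* promoter stood at percentiles 99.5, 99.4 and 99.4 in DP nEnd replicates 1 to 3 and at 99.8, 99.5 and 99.4 in Pdgfra+ nEnd. In Oct4+ nEnd it had a peak in replicate 1 only, at percentile 14.5. The groups did not overlap, with every DP and Pdgfra+ nEnd library far above the only marked Oct4+ nEnd library. The limma difference was -95.9 points (SE 9.04, adjusted p = 0.000109) for Oct4+ nEnd against Pdgfra+ nEnd and -95.8 (SE 9.04, adjusted p = 0.000145) against DP nEnd. Beyond the median of all genes these differences were -85.5 and -85.5 points.

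The beta chain gene *Lamb1* (chr12:31265234-31329644, plus strand) had a like pattern. Its percentiles were 99.2, 99.2 and 99.5 in DP nEnd and 99.8, 96.7 and 99.5 in Pdgfra+ nEnd, with a single Oct4+ nEnd peak in replicate 1 at 20.5. Again no Oct4+ nEnd library reached the lowest DP or Pdgfra+ nEnd library. In limma the difference was -93.6 points against Pdgfra+ nEnd (SE 9.40, adjusted p = 0.000119) and -94.1 against DP nEnd (SE 9.40, adjusted p = 0.000145). The fragment just upstream of its first TSS lies inside the peak of all 7 libraries that have one, and is shown with its CpG dinucleotides in capitals, since CpG-rich promoters are the usual sites of H3K4me3 (RefSeq, GRCm38, chr12:31265043-31265233, plus strand, 191 bases with 10 CpGs).
Lamb1: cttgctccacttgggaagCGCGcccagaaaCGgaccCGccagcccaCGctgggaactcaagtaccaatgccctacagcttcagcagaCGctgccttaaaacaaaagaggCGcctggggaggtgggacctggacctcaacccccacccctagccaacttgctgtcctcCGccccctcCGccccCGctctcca

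*Lamc1* (chr1:153218922-153332786, minus strand) encodes the gamma chain shared by most laminins, and unlike the other chains it was marked in all 10 libraries. In Oct4+ nEnd its percentiles were 88.1, 81.8, 68.5 and 58.7 in replicates 1 to 4. They were 99.9, 99.8 and 99.8 in DP nEnd and 99.9, 99.9 and 99.9 in Pdgfra+ nEnd, where it ranked 8th to 10th by total signal in the whole library. In Oct4+ nEnd these peaks had 1.14 to 2.09 times the total signal of the library's median peak, against 4.20 to 8.03 times in the other populations, and the groups did not overlap. The limma difference was -25.6 points against Pdgfra+ nEnd (SE 5.43, adjusted p = 0.00696) and -25.5 against DP nEnd (SE 5.43, adjusted p = 0.0112), of which -15.2 and -15.2 lay beyond the all-gene median. With equal numbers of peaks the differences grew to -40.5 and -40.4, and without the filter on marked libraries neither was called (adjusted p = 0.0783 and 0.108). The DP nEnd call was also lost when peaks were ranked by highest coverage (adjusted p = 0.0615) and without DP nEnd replicate 1 or 2 (adjusted p = 0.0530 and 0.0542).

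The collagen IV genes *Col4a1* and *Col4a2* lie head to head on chromosome 8, and their protein chains assemble into a single trimer. *Col4a1* (chr8:11198423-11312826) is on the minus strand and *Col4a2* (chr8:11312805-11449287) on the plus strand, so their first exons overlap by 22 bases and one peak marks both genes. Their values are therefore 1 measurement. The overlap is shown in capitals, with 4 further bases on each side, on the strand of *Col4a2* (RefSeq, GRCm38, chr8:11312801-11312830).
Col4a2 and Col4a1: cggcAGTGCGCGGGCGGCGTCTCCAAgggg

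The shared collagen IV peak ranked 5th, 3rd and 4th by total signal among all peaks of DP nEnd replicates 1 to 3 and 2nd in each Pdgfra+ nEnd library. In Oct4+ nEnd it was at percentile 32.8 in replicate 1 and 13.8 in replicate 2, and no peak was called in replicates 3 and 4. Its total signal was 6.29, 7.30 and 6.65 times that of the library's median peak in DP nEnd and 10.7, 5.22 and 8.37 times in Pdgfra+ nEnd, against 0.760 and 0.534 times in the marked Oct4+ nEnd libraries. Thus a promoter that was below the median peak in Oct4+ nEnd was near the top of the list in the other populations, with no overlap. The limma difference was -88.3 points against Pdgfra+ nEnd (SE 9.75, adjusted p = 0.000141) and -88.3 against DP nEnd (SE 9.75, adjusted p = 0.000298). Between DP nEnd and Pdgfra+ nEnd the percentiles did not overlap, lower in DP nEnd, which 5.47% of all tested genes shared (3.16% did so in the other direction), but the difference was -0.0246 points (limma adjusted p = 1.0).

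Among the linkers, *Hspg2* (chr4:137468769-137570630, plus strand), which encodes the heparan sulfate proteoglycan perlecan, was marked in every library. Its percentiles in Oct4+ nEnd were 64.3, 58.5, 25.8 and 24.9. They were 94.6, 91.6 and 90.5 in DP nEnd and 92.8, 87.3 and 84.3 in Pdgfra+ nEnd. No Oct4+ nEnd library reached those of the other populations, though its libraries were spread widely, at 43.34 ± 20.95 (SD, n = 4). In limma *Hspg2* differed by -44.8 points against Pdgfra+ nEnd (SE 10.02, adjusted p = 0.00945) and -48.9 against DP nEnd (SE 10.02, adjusted p = 0.00949). Without the filter both calls were lost (adjusted p = 0.0567 and 0.0546), as was that against DP nEnd without DP nEnd replicate 1 or 2 (adjusted p = 0.0642 and 0.0569). The 216 bases before its first TSS hold 17 CpGs (RefSeq, GRCm38, chr4:137468553-137468768, plus strand, CpGs in capitals).
Hspg2: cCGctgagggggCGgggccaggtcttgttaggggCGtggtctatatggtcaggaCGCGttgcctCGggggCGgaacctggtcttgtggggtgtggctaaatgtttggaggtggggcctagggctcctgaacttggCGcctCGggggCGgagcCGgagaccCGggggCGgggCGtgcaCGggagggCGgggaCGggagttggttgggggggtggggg

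The nidogens, which bind both laminin and collagen IV, did not follow this order. *Nid1* (chr13:13437551-13512269, plus strand) had a promoter peak in Pdgfra+ nEnd replicate 1 only, the library with the most peaks, and there it stood at percentile 5.15 and was 2527 bp wide. It was in none of the 3 consensus lists. Its promoter fragment is shown because it is CpG-rich although rarely marked, with 13 CpGs in 199 bases or 6.53 per 100, between the fragments of *Lamb1* (5.24) and *Hspg2* (7.87) (RefSeq, GRCm38, chr13:13437352-13437550, plus strand, CpGs in capitals).
Nid1: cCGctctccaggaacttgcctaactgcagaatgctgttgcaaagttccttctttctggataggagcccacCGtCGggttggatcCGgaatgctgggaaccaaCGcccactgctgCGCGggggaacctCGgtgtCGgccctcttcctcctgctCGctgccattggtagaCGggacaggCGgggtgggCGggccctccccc

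*Nid2* (chr14:19751265-19811787, plus strand) was marked in all 10 libraries and was the only linker with its higher values in Oct4+ nEnd. The percentiles were 90.9, 87.6, 70.2 and 65.2 in Oct4+ nEnd, 70.1, 64.6 and 63.2 in DP nEnd and 68.6, 30.0 and 47.4 in Pdgfra+ nEnd. Oct4+ nEnd replicates 1 and 2 were well above every DP and Pdgfra+ nEnd library and replicate 3 was level with the highest of them, so that the groups overlapped through replicate 4. In limma *Nid2* differed by 29.8 points against Pdgfra+ nEnd (SE 10.7, adjusted p = 0.0713) and 12.5 against DP nEnd (SE 10.7, adjusted p = 0.456), neither of which passed. With equal numbers of peaks *Nid2* passed in both, at 65.5 points (adjusted p = 5.13e-05) and 47.2 points (adjusted p = 0.000611), in comparisons that called 23.2% and 16.1% of genes higher in Oct4+ nEnd. It also passed against Pdgfra+ nEnd without Pdgfra+ nEnd replicate 1 (39.8 points, adjusted p = 0.0339).

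*Sparc* (chr11:55394500-55423183, minus strand) stood at percentiles 98.2, 97.8 and 95.3 in DP nEnd and at 98.9, 94.3 and 98.4 in Pdgfra+ nEnd. In Oct4+ nEnd it was at 13.4 in replicate 1 and 6.88 in replicate 2, with no peak in replicates 3 and 4. The groups did not overlap, and the limma difference was -92.1 points against Pdgfra+ nEnd (SE 9.16, adjusted p = 0.000119) and -92.0 against DP nEnd (SE 9.16, adjusted p = 0.000145). The RefSeq promoter of *Sparc* held 4 CpGs in 300 bases, against 18 to 37 for the other members with an entry.

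*Fn1* (chr1:71585520-71653200, minus strand) ran the other way. It was marked in all 4 Oct4+ nEnd libraries, at percentiles 89.8, 80.6, 39.2 and 62.4 of replicates 1 to 4. In DP nEnd it stood at 29.6, 33.3 and 26.7, and in Pdgfra+ nEnd at 30.0 and 10.4 in replicates 1 and 3, with no peak in replicate 2. Every Oct4+ nEnd library was above every library of the other populations, as was true of 5.44% of all tested genes against Pdgfra+ nEnd and 4.97% against DP nEnd. The limma difference was 54.5 points against Pdgfra+ nEnd (SE 13.4, adjusted p = 0.0147) and 38.1 against DP nEnd (SE 13.4, adjusted p = 0.0880), so the latter did not pass. Against Pdgfra+ nEnd the call was lost without the filter (adjusted p = 0.0563) and without Pdgfra+ nEnd replicate 2 or 3 (adjusted p = 0.0540 and 0.0672). Against DP nEnd it was gained without Oct4+ nEnd replicate 3 (47.7 points, adjusted p = 0.0210) and with equal numbers of peaks (53.6 points, adjusted p = 0.000261).

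Presence alone separated no member completely. A peak in all libraries of one population and in no library of the other was found for 0.791% of tested genes in favour of Oct4+ nEnd and 3.16% in favour of Pdgfra+ nEnd, for 0.446% and 4.29% in Oct4+ nEnd against DP nEnd, and for 0.243% and 0.0101% in DP nEnd against Pdgfra+ nEnd. Fisher's exact test on presence therefore gave no p under 0.05, with the smallest at 0.143 for *Lama1* and *Lamb1*, each marked in 1 of 4 Oct4+ nEnd libraries and in 3 of 3 of both other populations. In the deposited consensus lists, which have no replicates, 7 members had a peak in Oct4+ nEnd and 9 in each of the others, where the Oct4+ nEnd list marked 39.4% of all protein-coding genes, that of DP nEnd 42.0% and that of Pdgfra+ nEnd 40.4%. In Oct4+ nEnd *Lama1* and *Lamb1* were missing beside *Nid1*, which none of the lists held.

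The peaks of the laminin, collagen IV and *Sparc* promoters were long in DP nEnd and Pdgfra+ nEnd and reached well into the genes. *Lama1* peaks were 12306, 11444 and 11480 bp wide in DP nEnd and 13850, 5958 and 11326 bp in Pdgfra+ nEnd, against 5578 bp in the single Oct4+ nEnd library with a peak. Each covered the first exon of the principal transcript and no other of its 63 exons, and reached 5348 to 11536 bp past the TSS in DP and Pdgfra+ nEnd, so most of each lay in the first intron. *Lamb1* peaks were 14511, 11110 and 13636 bp wide in DP nEnd and 13973, 7123 and 10809 bp in Pdgfra+ nEnd, and took in 4 or 5 of 34 exons there, against 4931 bp and 3 exons in Oct4+ nEnd replicate 1.

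*Lamc1* held the widest single peak of the set, though collagen IV peaks were wider in 3 of the 6 DP and Pdgfra+ nEnd libraries. *Lamc1* peaks measured 19911, 19845 and 11416 bp in DP nEnd and 24259, 5394 and 11713 bp in Pdgfra+ nEnd, of which 3975 to 22157 bp lay downstream of the TSS. In Oct4+ nEnd they measured 5000, 4185, 3431 and 5076 bp, so the groups did not overlap (exact two-sided permutation test, p = 0.0286 against each, the smallest that 4 libraries against 3 allow). Pdgfra+ nEnd replicate 2 had the narrowest peaks throughout, with a median of 2204.5 bp against 3032.5 to 4222.5 bp in the other DP and Pdgfra+ nEnd libraries. Ranked by width within its library, the *Lamc1* peak was nevertheless at percentile 99.2 there, against 99.2 to 100 in all 6 DP and Pdgfra+ nEnd libraries and 46.4 to 70.8 in Oct4+ nEnd.

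The collagen IV peak extended both ways from the shared promoter. It was 15070, 16776 and 14761 bp wide in DP nEnd and 17932, 9792 and 12937 bp in Pdgfra+ nEnd, against 4384 and 3329 bp in Oct4+ nEnd replicates 1 and 2. In DP and Pdgfra+ nEnd it ran 6121 to 11165 bp into *Col4a1* and 3670 to 6766 bp to the *Col4a2* side of the *Col4a1* TSS, while in Oct4+ nEnd the longer arm was on the *Col4a2* side. By width it was at percentiles 99.8 to 100 of DP and Pdgfra+ nEnd libraries and did not overlap with Oct4+ nEnd (exact two-sided permutation test on width in bp, p = 0.0286 against each).

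Widths in bp, with no peak counted as 0, were narrower in Oct4+ nEnd without overlap for 5 members against Pdgfra+ nEnd (*Lama1*, *Lamb1*, *Lamc1*, *Col4a1* and *Col4a2*), beside 4.15% of all tested genes, and for these and *Sparc* against DP nEnd, beside 17.9%. They were wider for *Fn1* against Pdgfra+ nEnd, beside 5.48%, and for no member against DP nEnd, beside 1.0%. *Sparc* peaks of 10554, 9849 and 7803 bp in DP nEnd and 9456, 4128 and 8233 bp in Pdgfra+ nEnd covered 14.4% to 36.8% of this 28684 bp gene, and those of Oct4+ nEnd measured 3506 and 4319 bp. The Oct4+ nEnd widths overlapped with Pdgfra+ nEnd (exact two-sided permutation test, p = 0.0857) and not with DP nEnd (p = 0.0286, exact permutation). *Hspg2* peaks were 3514 to 6052 bp wide in Oct4+ nEnd, 5309 to 11023 bp in DP nEnd and 3379 to 7886 bp in Pdgfra+ nEnd, overlapping in both comparisons (exact two-sided permutation tests, p = 0.0857 and 0.60). *Nid2* peaks, at 3808 to 6973 bp, 3815 to 4984 bp and 2331 to 4004 bp, overlapped likewise.

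The *Fn1* peaks were wider in each DP nEnd library than in Pdgfra+ nEnd. The DP nEnd peaks of 5813, 5603 and 4094 bp were at percentiles 84.3, 77.6 and 64.8 by width, above their percentiles by total signal. In Pdgfra+ nEnd those of replicates 1 and 3 measured 2229 and 2047 bp, at percentiles 5.24 and 8.13 by width. The widths did not overlap (no peak counted as 0 bp), as held for 14.4% of all tested genes wider in DP nEnd and 0.0101% narrower, and the exact two-sided permutation test gave p = 0.10, the smallest that 3 libraries against 3 allow. In Oct4+ nEnd the widths were 8170, 4845, 2885 and 5269 bp, which overlapped with those of DP nEnd (exact two-sided permutation test, p = 0.914).

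**Figure D3:**
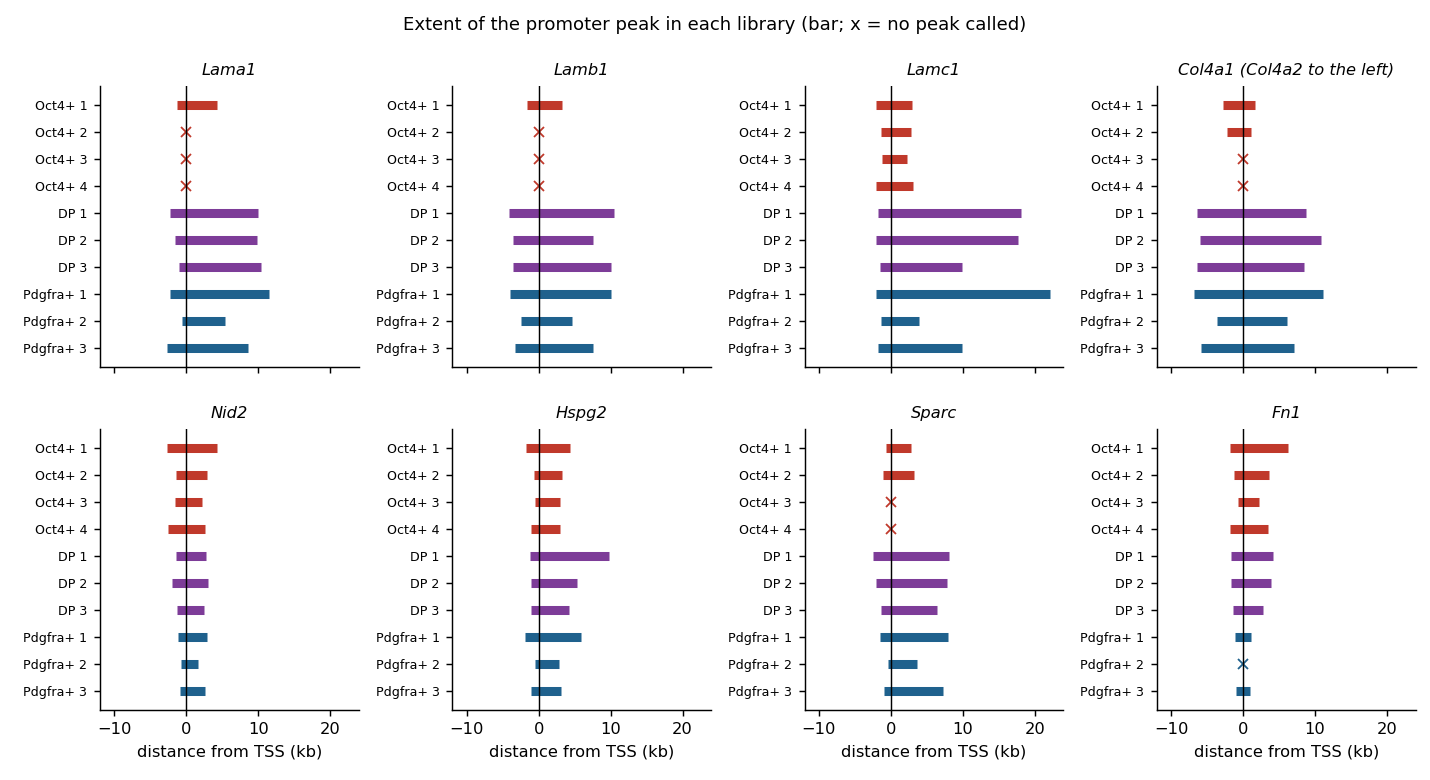
Extent of the strongest promoter peak in each library, as distance in kb from the TSS of the principal transcript (x axis, positive into the gene), for Oct4+ nEnd (red), DP nEnd (purple) and Pdgfra+ nEnd (blue), with crosses where no peak was called. The bars of *Lama1*, *Lamb1*, *Lamc1*, *Col4a1* and *Sparc* are longer in DP and Pdgfra+ nEnd than in Oct4+ nEnd apart from *Sparc* in Pdgfra+ nEnd replicate 2, and those of *Fn1* are shortest in Pdgfra+ nEnd.

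By the highest coverage within the peak, *Lama1*, *Lamb1*, *Sparc* and *Hspg2* stood lower than by total signal in every DP and Pdgfra+ nEnd library. By this measure *Lama1* was at percentiles 87.0 to 90.6 in DP nEnd and 75.4 to 96.9 in Pdgfra+ nEnd, and *Lamb1* at 78.1 to 89.6 and 53.1 to 96.5. *Sparc* was at 69.9 to 85.5 and 77.4 to 87.9, and *Hspg2* at 75.6 to 86.9 and 45.5 to 85.2, whereas *Lamc1* and the collagen IV promoter remained above the 95th in all 6 DP and Pdgfra+ nEnd libraries. The limma differences kept their direction, and the calls did too, except *Lamc1* against DP nEnd. The position of the highest point also differed among genes: it lay between -270 and 388 bp from the TSS of *Lama1*, *Lamb1*, *Lamc1* and *Col4a1*, and 700 to 1419 bp inside *Hspg2*. In *Sparc* it lay at 1763 to 1952 bp in Oct4+ nEnd, 498 to 782 bp in DP nEnd and 1853 bp in Pdgfra+ nEnd.

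For each member marked in at least 5 libraries, the genes with the most similar percentiles over the 10 libraries were found as those with the smallest mean absolute difference, a description only. *Lama1* was closest to *Pdgfra*, at 0.354 points on average, and *Lamb1* to *Serpinh1* (0.558 points), which encodes the collagen chaperone HSP47. The collagen IV promoter was closest to *Sox17* (1.24 points) and *Gata6* (2.06 points), and *Sparc* to *Gata4* (1.87 points) and *Smarca2* (2.04 points). *Sox17*, *Gata6* and *Gata4* encode transcription factors of PrE. *Lamc1* was closest to *Ppp3ca* (2.69 points), *Hspg2* to *Tet3* (4.13 points), *Nid2* to the ribosomal protein gene *Rps12* (4.38 points) and *Fn1* to *Rrn3* (4.95 points), none of them a matrix gene. The second nearest were *Serpinh1* for *Lama1* (0.955 points), *Pdgfra* for *Lamb1* (1.03 points) and *9130213A22Rik* for *Lamc1* (3.27 points). For *Hspg2* it was *Tlcd2* (4.30 points), for *Nid2* *Tardbp* (4.61 points) and for *Fn1* *Zfp110* (5.45 points).

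Genes for the enzymes and chaperones that fold, modify and cross-link collagen and laminin followed the structural genes in part. Of 23 such genes, 18 were tested, 9 were lower in Oct4+ nEnd than in Pdgfra+ nEnd and 6 lower than in DP nEnd, and none was higher, where 14.0% and 8.23% of all tested genes were called lower. Their median difference was -41.8 points against Pdgfra+ nEnd, beside -10.4 for all tested genes. *Serpinh1* was at 99.1 to 99.7 in Pdgfra+ nEnd, 98.9 to 99.1 in DP nEnd and 0 to 20.4 in Oct4+ nEnd (limma difference against Pdgfra+ nEnd -93.9, adjusted p = 0.000119). *P4ha1*, a prolyl hydroxylase subunit, was at 83.8 to 91.4 in Pdgfra+ nEnd and 0 to 21.3 in Oct4+ nEnd (-78.8, adjusted p = 0.000388). *Plod2*, a lysyl hydroxylase, had a difference of -79.1 (adjusted p = 0.000486), and peroxidasin, *Pxdn*, which forms the sulfilimine cross-links of collagen IV, had peaks in all 6 DP and Pdgfra+ nEnd libraries and in no Oct4+ nEnd library (-74.5, adjusted p = 0.000320). *P4ha2* (-67.4) and *P3h2* (-69.2), both for prolyl hydroxylation, were likewise marked in all 6 of those libraries and in none of Oct4+ nEnd. *Pxdn*, *P4ha2* and *P3h2* thus met the filter on marked libraries only through the populations where they were high. The lysyl oxidase genes *Lox*, *Loxl1*, *Loxl2* and *Loxl4* were marked in no library, while *Loxl3* was at 0 to 60.4 in Oct4+ nEnd, 13.1 to 33.4 in DP nEnd and 0 to 99.5 in Pdgfra+ nEnd and was not called.

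**Figure D4:**
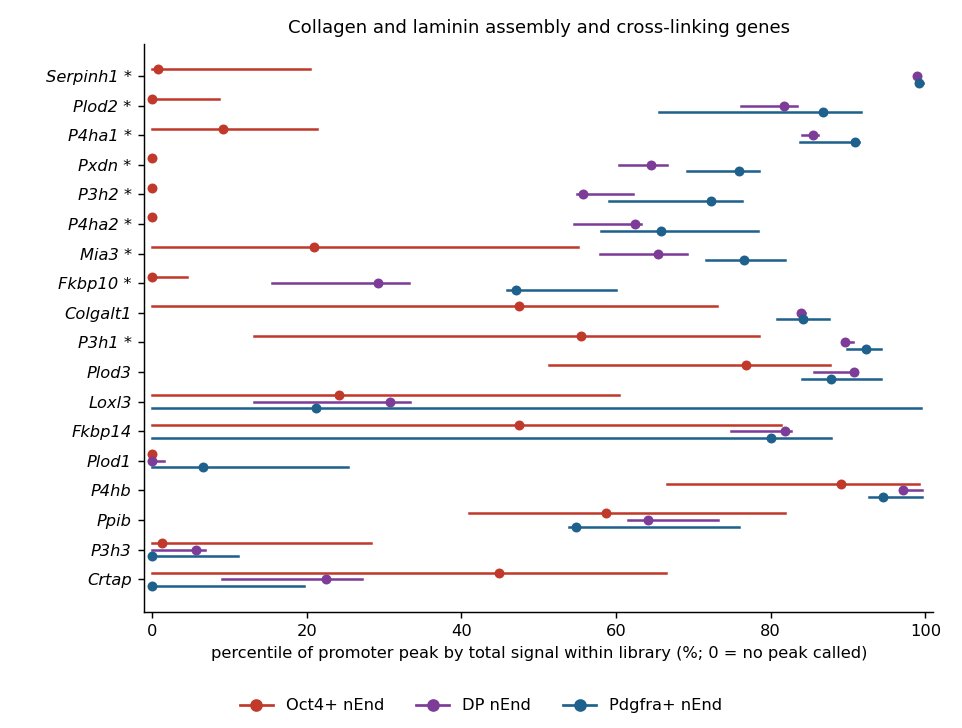
Percentile of the promoter peak (x axis, %) for the 18 tested genes of collagen and laminin assembly (y axis), with the median (point) and the range (line) over the libraries of Oct4+ nEnd (red), DP nEnd (purple) and Pdgfra+ nEnd (blue). Asterisks mark the 9 genes called lower in Oct4+ nEnd than in Pdgfra+ nEnd by limma, led by *Serpinh1*, *Plod2* and *P4ha1*.

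Of 30 further genes for basement membrane components, among them the other laminin and collagen IV chains, 17 had no promoter peak called in any library, as was true of 47.0% of all protein-coding genes, and 8 were tested. Against Pdgfra+ nEnd 2 of the 8 were higher and 1 lower in Oct4+ nEnd, beside 4.37% and 14.0% of all tested genes. *Lama5*, the alpha chain of laminin-511, was higher in Oct4+ nEnd than in Pdgfra+ nEnd, at 90.05 to 97.98 against 76.5 to 88.4 (limma difference 13.2, adjusted p = 0.0175), and was not called against DP nEnd (9.51, adjusted p = 0.0893). *Col18a1*, encoding collagen XVIII, was marked in 4 of 4 Oct4+ nEnd libraries and in 0 of 6 others, at 22.9 to 74.1 (limma difference 54.8, adjusted p = 0.00584). It met the filter of at least 3 marked libraries only through Oct4+ nEnd, so its p adds no support beyond these counts. *Ntn4*, a netrin that binds laminin, was marked in 0 of 4 Oct4+ nEnd libraries and in all 6 others, at 58.2 to 65.6 in DP nEnd and 74.3 to 85.3 in Pdgfra+ nEnd (limma difference -81.2, adjusted p = 0.000241). It likewise met the filter only through the populations where it was high.

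Of 19 genes for matrix receptors, 12 were tested and 2 were lower in Oct4+ nEnd than in Pdgfra+ nEnd, a share near the 14.0% of all tested genes: the integrin subunit gene *Itga3* (-46.3, adjusted p = 0.0360) and the collagen receptor gene *Ddr1* (-54.8, adjusted p = 0.0116), with none higher and a median of -15.6 points. Of 13 genes of matrix turnover, 6 were tested and 2 were lower, too few to read against the 14.0% of all tested genes: the membrane-type metalloprotease gene *Mmp15* (-76.1, adjusted p = 0.000638) and the secreted protease gene *Adamts9* (-74.7, adjusted p = 0.00267), with none higher. *Timp3*, a protease inhibitor gene, and *Adamts1* had a peak in no Oct4+ nEnd library, 2 of 3 Pdgfra+ nEnd libraries and every DP nEnd library, and were not called against Pdgfra+ nEnd.

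Markers of other cell types were counted in the same libraries. Fibroblasts, which formed the feeder layer and make several of these proteins, were followed with 15 genes, of which 13 had no promoter peak in any library, *Col1a1*, *Col1a2*, *Col3a1*, *Thy1*, *Postn* and *Dcn* among them. The remaining *Col5a1* and *Twist1* stood at 0 to 40.8 and 0 to 13.0, and neither was called in any comparison. The percentiles of the 15 genes summed to at most 1.04 in an Oct4+ nEnd library, 31.2 in DP nEnd and 49.3 in Pdgfra+ nEnd, out of 1500. Of 5 endothelial markers, 4 had no peak in any library, *Pecam1* among them. The study used its product PECAM to identify the pluripotent Oct4+ cells of nEnd. A missing peak here thus does not show that a cell type was absent. All 8 primitive endoderm markers were lower in Oct4+ nEnd in both comparisons (14.0% and 8.23% of all tested genes were), with *Foxa2*, *Sox7*, *Dab2* and *Cited1* marked in no Oct4+ nEnd library. All 8 epiblast genes were higher there (4.37% and 1.74% of all tested genes were), with *Pou5f1*, *Nanog*, *Sox2*, *Esrrb* and *Tdgf1* marked in no Pdgfra+ nEnd library. These lists hold *Pdgfra*, whose product was the sort marker, and *Pou5f1*, the gene of the OCT4 reporter, so the sort bears on the direction of both. Of parietal endoderm markers 3 of 6 were tested and 2 were lower in Oct4+ nEnd, *Pth1r* (-99.3 against Pdgfra+ nEnd, adjusted p = 9.87e-05) and *Snai1* (-74.4, adjusted p = 0.000486), while 5 of 7 visceral endoderm markers had no peak in any library and *Amn* had one in the 3 DP nEnd libraries only.

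Promoter sequences from RefSeq (GRCm38.p6, 300 bases around the TSS) were matched for 6 members, and not for *Lama1*, *Lamc1*, *Nid2* and *Fn1*. The 6 held a median of 23.5 CpGs and 67.5% G and C, against 7 CpGs and 52.7% over 27025 promoters of that length. *Col4a1* had 37 CpGs, *Col4a2* 33, *Hspg2* 27, *Nid1* 20, *Lamb1* 18 and *Sparc* 4. The motif GGGCGG occurred on either strand in 5 of 6, all but *Sparc*, beside 35.9% of all promoters, and CCAAT in 4 of 6, beside 37.9%. The windows of *Col4a1* and *Col4a2* overlap, and the only GGGCGG of *Col4a1* lies in the shared bases printed above, so that copy counts for both genes. None of the 6 windows held the GATA-type motifs AGATAA (11.4% of all promoters) or TGATAA (9.26%), or TATAAA (14.2%), TGACTCA (5.17%) or ACAAT (31.6%), which says only that these letters are not in these windows.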

How the data were processed

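H3K4me3 CUT&Tag was measured in 10 libraries (4 of Oct4+ nEnd, 3 of DP nEnd, 3 of Pdgfra+ nEnd), grouped by the labels. By the submitters' processing notes and the study's methods, the authors demultiplexed with bcl2fastq 2.19.1, aligned reads to mm10 with Bowtie2, used SAMtools 1.12, deepTools and bedtools 2.26.0, called peaks with SEACR (stringent, against IgG) per library and made consensus lists with DiffBind. Per library, the deposited peaks hold 2 coverage values, the total and the highest signal, neither scaled between libraries. The consensus lists gave positions only. The study speaks of biological replicates, but the labels do not say that libraries came from separate cultures, and if they did not, p-values measure technical spread.

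TSSs were the 93513 of 21938 protein-coding genes in GENCODE M21 (chromosomes 1 to 19, X and Y), with 1 bp of overlap enough to mark a gene. Percentiles of 9864 genes marked in at least 3 libraries entered 1 limma 3.58.1 fit (R 4.3.3, eBayes with trend) with 3 group means, with Benjamini-Hochberg adjustment over all of them and calls at an adjusted p under 0.05. Single members were also compared by exact permutation and Fisher's exact tests (scipy 1.17.1). The peak lists carry no read totals, so depth is unknown and no interval was computed.

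The members and gene lists were chosen with earlier results of these data known. Named were the 10 members, from each list up to 4 genes with the largest limma difference among those called in Oct4+ against Pdgfra+ nEnd (for the marker lists in part), genes with a peak throughout one population and absent from another, and the 2 genes nearest each member in percentile. The list of endoderm regulators is not reported here. The *Lox* family and fibroblast genes were named after their values were seen. Other settings tried were a window of 2500 bp either way, a peak over 50% of the window, equal numbers of peaks, protein-coding transcripts only, ranking by highest coverage, no filter, no trend, a replicate block and leaving out each library.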

Additional observations from a re-analysis of the deposited data

Results flagged for a closer look

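The values of *Lama1* and *Lamb1* in Oct4+ nEnd replicate 1 stood apart from the other Oct4+ nEnd libraries, by Dixon's test for a single distant value in a group of 4. The *Lama1* percentile was 14.5 and its peak 5578 bp wide there, the *Lamb1* percentile was 20.5 and its peak 4931 bp wide, and replicates 2 to 4 had no peak at either promoter. With the other 3 libraries all at 0, the test gives this result whatever the value of replicate 1, so it only restates that 1 of 4 libraries had a peak. Dixon's test was applied to 20 values of Oct4+ nEnd, and chance alone marks about 1 in 20. That library also had the longest peak list of Oct4+ nEnd, with 9144 peaks, and with its 3477 strongest peaks kept neither promoter had a peak.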

How the results depend on the processing

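*Lama1*, *Lamb1*, *Col4a1*, *Col4a2* and *Sparc* were lower in Oct4+ nEnd than in Pdgfra+ nEnd and than in DP nEnd at an adjusted p under 0.05 in limma under all 18 other settings, with the highest adjusted p at 0.00797. The calls of *Lamc1*, *Hspg2*, *Fn1* and *Nid2* that changed are given with those genes. The number of genes called in Oct4+ against Pdgfra+ nEnd was 1814, and 799 by highest coverage, 849 without the filter and 968 to 2801 without 1 library (2801 without Oct4+ nEnd replicate 1, 972 without replicate 4, 968 without Pdgfra+ nEnd replicate 3). In Oct4+ against DP nEnd it was 984, and 2034 with equal numbers of peaks, 435 by highest coverage, 526 without the filter and 317 to 2026 without 1 library (2026 and 518 without Oct4+ nEnd replicates 1 and 4, 319, 317 and 415 without DP nEnd replicates 1, 2 and 3). In DP against Pdgfra+ nEnd it was 10, and 150 with equal numbers of peaks, 0 by highest coverage and 0 to 46 without 1 library. Equal numbers of peaks also took the marked members per library from 6 to 3.75 in Oct4+ nEnd, from 9 to 8 in DP nEnd and from 9 to 7.33 in Pdgfra+ nEnd. The cause of these shifts was not tested.

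Same-numbered libraries correlated between -0.169 and 0.231 in their deviations from the group means, and differently numbered ones between -0.377 and 0.341. Deviations from means of 3 or 4 libraries cannot show whether same-numbered libraries shared a culture or a sort, and the labels do not say. A limma fit with the replicate number as a block called 1118, 529 and 3 genes in the 3 pairs in the order above and changed no call of a member. Oct4+ nEnd replicate 4 has no partner and adds nothing to that fit's differences.

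Some differences that no test called changed sign without 1 library. For DP against Pdgfra+ nEnd the *Lama1* width difference ranged from -844.667 to 3101 bp, that of *Lamc1* from -928.667 to 8504 bp, the *Lamb1* percentile difference from -0.389 to 1.15 and that of *Sparc* from -1.56 to 0.811, with 0.749 and 0.522 without Pdgfra+ nEnd replicates 1 and 3. The *Hspg2* width difference in Oct4+ against Pdgfra+ nEnd ranged from -1604.75 to 648.75 bp, and that of *Fn1* in Oct4+ against DP nEnd from -837 to 924.667 bp, with -415.75 bp without DP nEnd replicate 3. Read depth is unknown and 3 libraries against 3 cannot give an exact p below 0.10, which limits DP against Pdgfra+ nEnd.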
